A study of Mus musculus with 8 samples.

Results

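The response common to carbidopa, CHIR-99021 and LY-364947 was taken from all 8 of the 8 RNA-seq libraries of the study: 6 libraries of mouse embryonic fibroblasts (MEFs) given 1 of the 3 compounds, set against the 2 libraries of MEFs that the labels call only "Control". The MEFs were wild type and, per the study's methods, came from E13.5 C57BL/6J embryos whose head, tail, limbs and internal organs had been removed. They were used at passages P3-P5 in serum-containing medium. Each compound was given at 10 µM from shortly after plating to 2 libraries. Per the labels and methods the medium and compound were renewed every 3 days. The methods give 7 days of treatment for the cells used for qRT-PCR and no length for the RNA-seq cells, and no vehicle is named for the controls. The labels spell the TGF-beta receptor inhibitor LY-364747, and the methods LY-364947. The same 2 MEF libraries served all 3 comparisons. An effect of the compounds, and any other difference between the treated and the control cultures, therefore cannot be told apart in what the 3 comparisons share. Nothing says whether 2 libraries of 1 group came from separate cultures, so p-values measure the spread between these libraries.

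The compounds have different known targets. CHIR-99021 inhibits glycogen synthase kinase 3, which releases canonical Wnt signalling. LY-364947 inhibits the kinase of the type I TGF-beta receptor, and carbidopa inhibits aromatic L-amino acid decarboxylase. MEFs are mesenchymal cells that in culture make a collagen- and proteoglycan-rich matrix and often carry the smooth muscle actin fibres of myofibroblasts. Several large common changes, among many others, lay in the retinoic acid pathway. Retinoic acid is made from retinol in 2 oxidation steps, the second by the Aldh1a enzymes, and is broken down by the Cyp26 enzymes. It binds the nuclear receptors Rara, Rarb and Rarg, which sit on DNA at pairs of short direct repeats. Rarb and Cyp26a1 are textbook examples of genes that retinoic acid induces through a repeat pair with 5 bases between its arms, called DR5.

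The promoters of these 2 genes are shown because they hold that element and because both genes were higher in all 3 treatments. They are the 250 bases upstream of the start that RefSeq gives on GRCm38.p6, at chr14:16575477-16575726 on the minus strand for Rarb and chr19:37697558-37697807 on the plus strand for Cyp26a1. They are written 5′ to 3′ along the gene, and capitals mark the DR5 match.

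Rarb: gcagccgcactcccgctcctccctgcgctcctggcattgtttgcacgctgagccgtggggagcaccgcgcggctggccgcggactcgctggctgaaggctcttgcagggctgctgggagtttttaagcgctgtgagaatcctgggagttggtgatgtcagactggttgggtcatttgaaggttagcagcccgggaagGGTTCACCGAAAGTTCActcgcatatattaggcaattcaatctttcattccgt

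Cyp26a1: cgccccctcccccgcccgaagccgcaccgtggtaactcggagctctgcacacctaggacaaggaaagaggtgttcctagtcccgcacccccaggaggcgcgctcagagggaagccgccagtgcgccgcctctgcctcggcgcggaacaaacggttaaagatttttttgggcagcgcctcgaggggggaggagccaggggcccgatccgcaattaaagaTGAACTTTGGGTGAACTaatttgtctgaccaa

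In Rarb the match ran from 53 to 37 bases before the start on the gene's own strand. In Cyp26a1 it ran from 32 to 16 bases before the start on the opposite strand. The DR5 pattern, searched on both strands in the 250 bases upstream of each start, occurred in 29 of 32851 promoters, or 0.0883%. Of the tested genes, 70.7% had a promoter in the table, and 7 of these 10706 (0.0654%) held DR5. Among genes higher in all 3 treatments it was found in 2 of 984, which were Rarb and Cyp26a1. Among those lower in all 3 it was found in 1 of 1419, which was Syndig1. A match of letters is a description and does not show binding. Syndig1 and Cyp26a1 were named after their values had been seen.

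Of 50578 genes in the count table, 15154 had enough counts to be tested. A gene was counted as common to the 3 compounds when edgeR's quasi-likelihood test called it against MEF in each of them, at an adjusted p under 0.05 and in the same direction. This held for 1303 genes that were higher (8.6% of genes tested) and 1943 that were lower (12.8%), 3246 in all (21.4%). Taken singly, carbidopa gave 18% of genes higher and 19.7% lower, LY-364947 13.7% and 17.2%, and CHIR-99021 18.7% and 20.1%, all against the same controls. In the average of the 3 changes, called the mean response or mean change here, 19.6% of genes were higher and 21.8% lower. Changes are on the log2 scale, with the standard error (SE) after ±, and levels of a gene are normalized counts, that is, counts adjusted for library size. The 6 treated libraries lay on one side of both MEF libraries for all 3246. Over all genes tested, the 6 lay above both MEF libraries in 21.4% and below both in 24.9%. A further 38 genes were called in all 3 treatments but not in one direction. The median change was 1.06 on the log2 scale for the common rises and -1.26 for the common falls. The treated libraries were higher by at least 16-fold for 90 genes and lower by at least 16-fold for 121. The MEF libraries weighed most on these counts: without MEF 1 the numbers higher and lower were 776 and 1328, and without MEF 2 they were 738 and 1261.

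The common falls took a large part of the control transcriptome. The genes lower in all 3 treatments held 30.8% and 30.9% of all counts in the MEF libraries and between 15.3% and 16.4% in the 6 treated libraries. The genes higher in all 3 held 3.93% and 3.89% of counts in MEF and between 10.1% and 11% in the treated libraries. These shares describe genes that were chosen by the same counts, so no test is given. Over single genes the 2 carbidopa libraries differed more than the 2 libraries of any other group, with a chi-square per degree of freedom of 36.4 between them against 4.35 in MEF, 7.6 for LY-364947 and 9.38 for CHIR-99021.

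**Figure D1:**
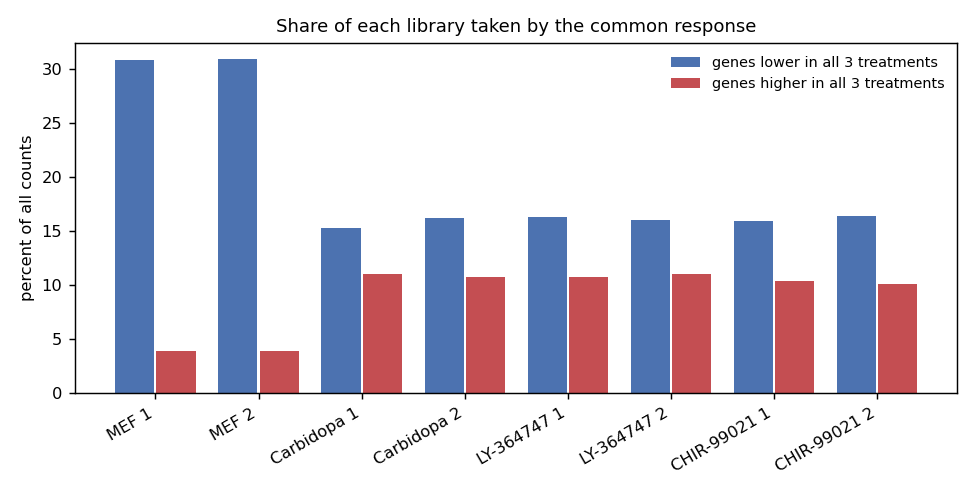
The bars show the percent of all counts in each of the 8 libraries that belonged to genes lower (blue) or higher (red) in all 3 treatments. The blue bars stand at 30.8% and 30.9% in the MEF libraries and at 15.3% to 16.4% in the treated ones, and the red bars at 3.89% to 3.93% and 10.1% to 11%.

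The size of the change was set side by side for the 3 compounds. A common gene was said to have moved alike when its 3 log2 fold changes lay within 1.5-fold of each other and edgeR's test of any difference among the treatments was not past an adjusted p of 0.05. This held for 906 genes that rose (5.98% of genes tested) and 1109 that fell (7.32%), or 69.5% of the common rises and 57.1% of the common falls. For 1830 of these 2015 genes (90.8%), the 95% intervals of all 3 differences between compounds also lay within 2-fold. The median spread between the largest and the smallest of the 3 changes was 0.38 on the log2 scale over all common genes. Lrrc7, at 0.5842, stood just inside the 1.5-fold limit and Map3k5, at 0.5859, just outside it. Over all genes tested, 13.3% differed among the 3 treatments. Of the common genes 707 did so (21.8%), and in 662 of them CHIR-99021 was the compound whose change lay farthest from the nearest of the others. The share that moved alike was 89.2% among common genes with a mean change under 2-fold and 15.2% among those at 16-fold or more. The 1.5-fold limit is the same for changes of every size, so this contrast was in part set by the rule. A difference among compounds was called for 10.1% of the common genes under 2-fold and for 24.6% of those at 16-fold or more.

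**Figure D2:**
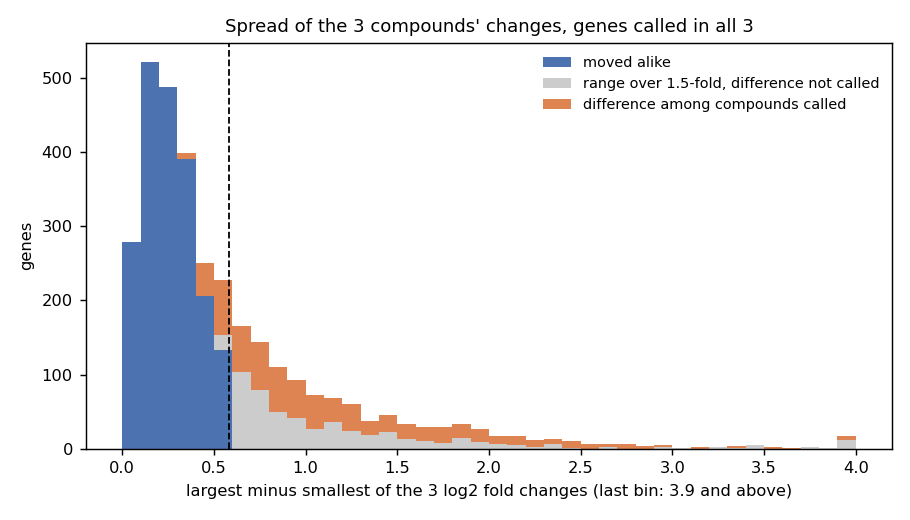
The histogram counts the 3246 genes called in all 3 treatments by the spread of their 3 log2 fold changes, with the 1.5-fold limit as a dashed line. Blue marks the 2015 that moved alike and orange the 707 for which a difference among compounds was called, and grey the rest.

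Retinoic acid genes moved in both directions. Of 15 members of the list tested, 7 rose and 3 fell in all 3 treatments, against 8.6% and 12.8% of all genes tested, and the median of the mean change over the 3 compounds was 1.01, against 0.03 over all genes tested. Summed levels of lists are given in CPM, which are counts scaled by the library total as adjusted by edgeR's TMM scaling. The retinoic acid list went from 764.3 and 772.2 CPM in MEF to between 1842 and 2105 CPM in the treated libraries. The receptor Rarb (chr14:16430839-16819156 in GENCODE M21, minus strand, with the RefSeq start inside it) had the largest rise among the genes that moved alike and reached 100 normalized counts. It had 16 normalized counts in each MEF library and 5687 to 7365, with a median of 6954, in the treated ones. All 6 treated libraries stood far above both controls. The mean change was 8.72 ± 0.15 (SE) on the log2 scale with an edgeR adjusted p of 9.7e-11, made of 8.82 for carbidopa, 8.79 for LY-364947 and 8.55 for CHIR-99021. Neither of the other receptors was called in all 3. Rarg had 2323 and 2108 counts in MEF and 1036 to 2198 in treated libraries. Rara had 483 and 466 counts in MEF, 327 to 386 in the carbidopa and LY-364947 libraries, and at most 973 with CHIR-99021, and its mean change was 0.03.

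Genes that lower retinoid levels rose. Dhrs3, the reductase that returns retinaldehyde to retinol, went from 523 and 516 normalized counts to between 6353 and 8522, a mean change of 3.82 ± 0.11 (edgeR adjusted p = 2.6e-09), and moved alike. Cyp26b1, which oxidizes retinoic acid, went from 209 and 196 counts to between 3996 and 10591. Its rise differed in size among compounds, with 5.68 for carbidopa, 5.65 for LY-364947 and 4.39 for CHIR-99021. Cyp26a1, its paralogue, had 0 reads in both MEF libraries and 11 to 24 reads in each treated library. Set against a floor of 3 reads per MEF library, it was at least 4.29-fold higher with carbidopa, 3.35-fold with LY-364947 and 6.36-fold with CHIR-99021. These bounds cover counting error only.

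Aldh1a2 and Aldh1a3, enzymes of retinoic acid synthesis, were lower, at low counts. Aldh1a3 had 47.9 and 46.2 normalized counts in MEF and 0.999 to 5.62 in treated libraries, a mean change of -3.66 ± 0.34. Aldh1a2 had 29.2 and 16.2 in MEF and 1.87 to 7.99 after treatment. Neither pair of ranges overlapped, which held for every common gene. Of the binding proteins that carry retinoic acid in the cell, Crabp1 went from 2952 and 2827 to between 894 and 1639.8, a mean change of -1.36 ± 0.14 (edgeR adjusted p = 2.3e-05). It moved alike in the 3 treatments. Crabp2 had 149 and 125 counts in MEF, 117 to 155 with carbidopa and LY-364947 and at most 471 with CHIR-99021, and was not called in all 3. The transglutaminase Tgm2, a classical retinoic acid target, rose, with a mean change of 2.44 ± 0.10. It is also a member of the matrix crosslinking list. Members of this list other than Rarb, Dhrs3, Cyp26b1 and Tgm2 were named after their values had been seen.

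**Figure D3:**
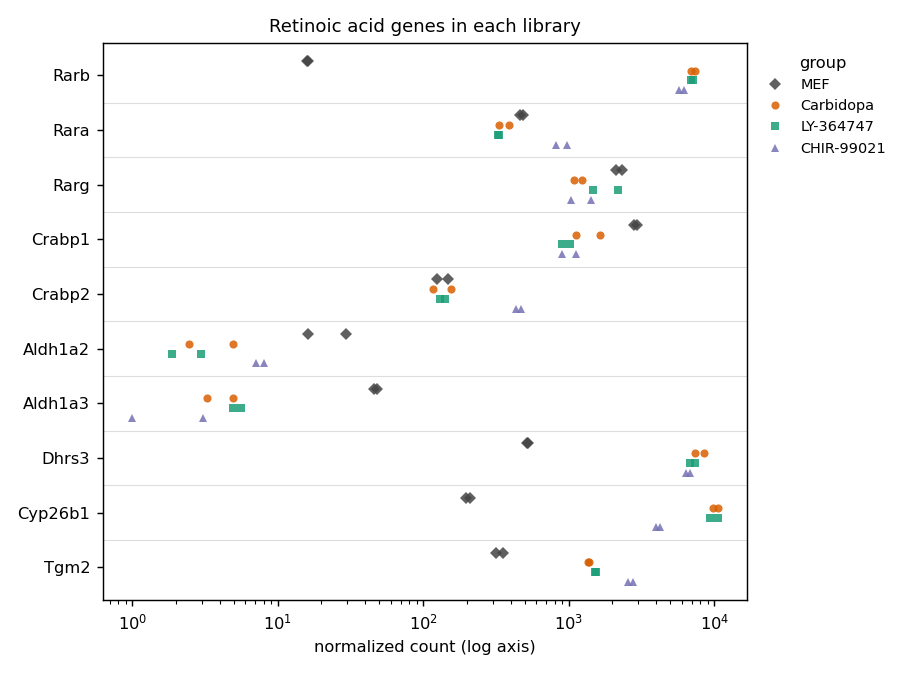
Each row is a gene of the retinoic acid list and each point a library, placed by its normalized count on a log axis. Rarb, Dhrs3, Cyp26b1 and Tgm2 lie to the right of both MEF points in all 6 treated libraries, Crabp1, Aldh1a2 and Aldh1a3 to the left, and Rara and Crabp2 only in part.

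The other largest rises among these genes were of genes with various functions. The second was 2610528A11Rik, which rested on 1 and 5 reads in MEF and had 534 to 675 normalized counts after treatment, a mean change of 7.29 ± 0.27. Cdhr1, a cadherin of photoreceptors, went from 70.5 and 62.3 to between 2671 and 3747 normalized counts, a change of 5.63 ± 0.14. These genes lie close together on the minus strand, at chr14:37077857-37098347 for Cdhr1 and chr14:37102140-37114022 for 2610528A11Rik. Whether they rose separately was not tested. Esm1, a secreted proteoglycan best known from endothelium, went from 9.31 and 11.5 to between 276 and 406. For each of these the lowest treated library stood far above the higher MEF library. Igfbp6, a binding protein that prefers IGF2, had 428 and 457 counts in MEF and 7677 to 16512 in treated libraries (mean change 4.58 ± 0.26, edgeR adjusted p = 2.4e-07). The 2 carbidopa libraries differed for it, at 16512 and 9370 counts. The lower of these lay within the range of the other 4, which was 7677 to 10480. Over LY-364947 and CHIR-99021 alone the mean change of Igfbp6 was 4.42. Gprc5b, an orphan receptor of a family first found through retinoic acid induction, rose by 4.1 ± 0.12, from 179 and 167 counts to between 2552 and 3334. Sprr1a, a cornified envelope protein, rose by 4.43 ± 0.15, and the monocarboxylate transporter family member Slc16a12 by 4.29 ± 0.17. Zfp804a, Ttll11 and A730049H05Rik rose by 4.77, 3.81 and 3.94.

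The largest falls that moved alike were likewise of genes with various functions. Lgr5 (chr10:115450311-115587780), the receptor for R-spondins that marks many stem cells, had 7109 and 7559 normalized counts in MEF and 8.94, 9.84 and 18.3 as the lowest, median and highest values after treatment. All 6 treated libraries stood far below both controls. Its mean change was -9.21 ± 0.14 (edgeR adjusted p = 8.5e-11), with -9.49 for carbidopa, -9.11 for LY-364947 and -9.02 for CHIR-99021. Dkk2, a secreted Wnt antagonist, fell from 2933 and 3283 to between 64.9 and 113, and was among the 12 largest falls with Lgr5. Nkd2 and Wif1 were not among the 12 and are given as members of the Wnt list. Nkd2, an intracellular antagonist, fell from 483 and 445 to between 98.6 and 177. Wif1, another antagonist, was at 29.2 and 34.6 in MEF and at 0 to 2.03 after treatment. Of 16 Wnt target and feedback genes tested, 3 rose and 5 fell in all 3 treatments, against 8.6% and 12.8% of all genes tested.

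Eln (chr5:134702593-134747323), which encodes elastin, fell from 2033 and 2289 normalized counts to between 8.26 and 14.9, a mean change of -7.54 ± 0.12 (edgeR adjusted p = 8.9e-11). Acta2 (chr19:34241090-34255590), the smooth muscle actin that defines myofibroblasts, fell from 38635 and 35226 to between 1559.9 and 2328, a mean change of -4.33 ± 0.12. In both, the 6 treated libraries formed a narrow group far below MEF. Fst, which encodes the activin antagonist follistatin, had a mean change of -7.14 ± 0.17, from 1349.5 and 1632 to between 6.95 and 16.3. The chemerin receptor Cmklr1 fell from 431 and 441 to between 3.75 and 7.94, and the chemokine Cxcl14 from 913 and 949 to between 40.7 and 62.9. Neither overlapped with MEF, as no common gene did. The short-chain collagen Col8a2, the glutamate transporter Slc1a3, the chondroitin sulphate enzyme Csgalnact1 and the secreted matrix protein Ccdc80 fell too, with mean changes of -5.66, -5.02, -4.32 and -4.20. Ms4a6c, a gene of the macrophage lineage, fell by 4.92 ± 0.31 to 1 to 6 reads in each treated library.

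**Figure D4:**
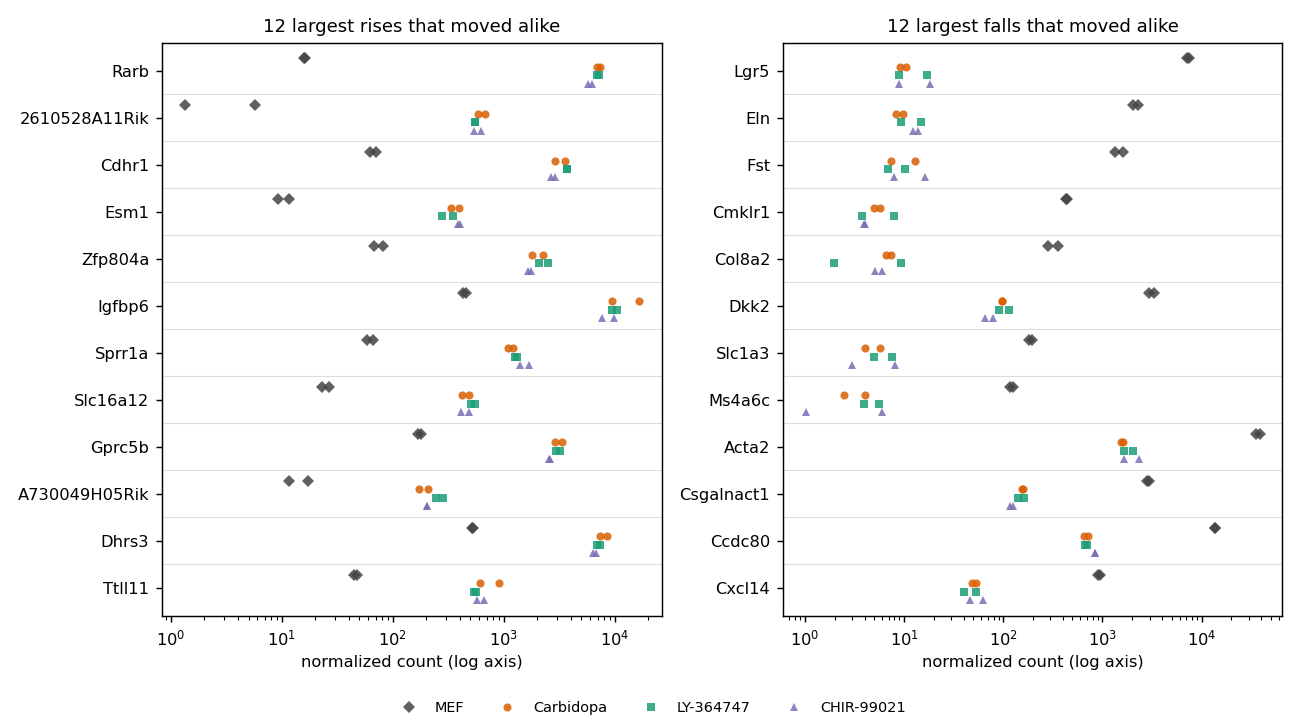
Points give the normalized count of each library on a log axis for the 12 largest rises (left) and the 12 largest falls (right) among genes that moved alike and reached 100 normalized counts in MEF or treated libraries. In every row both MEF diamonds stand apart from all 6 treated points, as the choice of genes required, with Rarb and Lgr5 showing the widest gaps.

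Matrix genes fell broadly. Over 6 lists of collagens, elastic fibres, matricellular proteins, proteoglycans, basement membrane and proteases, 120 genes were tested. Of these, 73 fell in all 3 treatments (60.8%, against 12.8% of all genes tested) and 13 rose (10.8%, against 8.6%), and 30 of the falls and 7 of the rises moved alike. The median mean change over the 120 was -1.19. The counts of the single lists are to be read against the same 12.8% and 8.6%. In the fibrillar collagen list, 14 of 23 fell and 3 rose. Col5a1, which starts fibril assembly, fell by 1.81 ± 0.08 (edgeR adjusted p = 4.0e-08) and moved alike. Col1a1 and Col1a2, the chains of type I collagen, fell with mean changes of -1.71 and -2.05, each with a size that differed among compounds. In counts, Col1a1 went from 72878 and 70836 to between 11792 and 39487. In the elastic fibre and crosslinking list, 13 of 22 fell and 6 rose. Of 20 matricellular genes 15 fell and none rose, and the summed level of the list fell from 55980 and 56640 CPM in MEF to between 13100 and 21950. One of them, fibronectin (Fn1), had 344480 and 334150 normalized counts in MEF and 33861 to 86567 after treatment, and was named after its values had been seen. Its lowest values were 33861 and 62510, in the 2 carbidopa libraries.

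Small leucine-rich proteoglycans, which coat collagen fibrils and bind growth factors, had a median mean change of -3.21 over the 10 tested, of which 7 fell and 1 rose, against 12.8% and 8.6% of all genes tested. Lum, lumican, moved alike, from 4801 and 5789 normalized counts to between 642 and 998, a change of -2.69 ± 0.11 (edgeR adjusted p = 2.3e-08). Bgn, biglycan, went from 164520 and 178390 counts to between 6549 and 20742, with changes of -4.54, -4.17 and -3.12 for carbidopa, LY-364947 and CHIR-99021 that differed in size. Of 24 proteases and inhibitors, 16 fell and 1 rose. The inhibitors Timp1 and Timp2 fell alike, with mean changes of -2.98 ± 0.09 and -3.40 ± 0.14, with Timp2 going from 71129 and 73366 counts to between 5202 and 7968. Mmp13, a collagenase, fell as well, from 674 and 684 to between 15.9 and 55.9, by different amounts. In the basement membrane list 8 of 22 fell and 2 rose, with Lama2 and Col18a1 falling alike and mean changes of -1.65 and -1.81.

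Genes of the integrin list, which holds receptors for the matrix and related proteins, fell in part. Of 23 integrins and partners, 13 were lower and 2 higher in all 3 treatments, against 12.8% and 8.6% of all genes tested. Itgbl1, an integrin beta-like secreted protein, fell from 7579.9 and 7883 to between 501 and 652 normalized counts (mean change -3.75 ± 0.08, edgeR adjusted p = 2.1e-10). The fibronectin receptor subunit Itga4 and the laminin receptor subunit Itga6 fell alike, with mean changes of -1.64 and -1.27. Itga3, another laminin receptor subunit, went the other way, from 166 and 166 to between 913 and 1274, a change of 2.73 ± 0.12 (edgeR adjusted p = 3.8e-08). All 6 treated libraries were above MEF for it and below MEF for the 3 others, as calls in all 3 treatments went with separate groups throughout.

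Contractile genes fell in part. Of 17 smooth muscle genes 8 fell and 1 rose, and of 27 actin cytoskeleton genes 7 fell and none rose, against 12.8% lower over all genes. The myosin kinase Mylk moved alike, from 912 and 917 to between 184 and 321. The visceral actin Actg2 and the smooth muscle myosin Myh11 fell with mean changes of -3.48 and -2.44, with differences in size among compounds. Of the 16 fibroblast markers 11 fell and 2 rose, 1 of the 2 being Pdgfra, which went from 4252 and 4715 to between 5509 and 6894 and whose mean change did not pass without MEF 1 (edgeR adjusted p = 0.053). Vim, vimentin, fell alike with a mean change of -1.74 ± 0.13 and still had 9874 to 15713 normalized counts after treatment.

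Genes of the secretory route, which carries matrix proteins out of the cell, fell in part. Over the chaperone and the secretory lists 46 genes were tested, of which 16 fell and 1 rose in all 3 treatments, against 12.8% and 8.6% of all genes tested, and 29 were in neither group. Of the 16 falls 15 moved alike, and the median mean change over the 46 was -0.31. Edem1, which hands misfolded glycoproteins over for degradation, fell by 1.02 ± 0.08 (edgeR adjusted p = 4.1e-06), from 3808 and 3798 counts to between 1591 and 2054. Xbp1, a transcription factor of the unfolded protein response, fell by 0.61 ± 0.08, and the chaperone Hsp90b1 had a mean change of -0.46 ± 0.08. In the vesicle coat and cargo receptor genes Sec23a and Lman1 the mean changes were -0.94 and -0.76, and Kdelr3, the receptor that retrieves chaperones, fell by 1.51. In all of these the treated libraries lay below both MEF libraries, as they did for every gene lower in all 3 treatments.

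Secreted signals and their receptors moved in both directions, with more falls than rises. In the BMP list, 8 of 21 fell and 5 rose, against 12.8% and 8.6% of all genes tested. Of the secreted BMP antagonists, Fst fell alike as given above, and Grem1 fell from 13366 and 12800 to between 1273 and 2250 normalized counts, by sizes that differed among compounds. Bmper, another binding protein, fell alike with a mean change of -1.73 ± 0.12. Id1 and Id3, target genes of BMP signalling, rose alike by 1.59 ± 0.24 and 2.95 ± 0.27 (edgeR adjusted p = 3.9e-04 and 9.9e-06). Id3 went from 231 and 224 counts to 2699 and 1414 in the 2 carbidopa libraries and to between 1320 and 1787 in the other 4. Both Id genes were named after their values had been seen. In the insulin-like growth factor (IGF) list 8 of 20 fell and 3 rose, beside the same shares of all genes. The ligand Igf1 fell from 3050 and 3549 to between 297 and 446, a change of -3.17 ± 0.11 (edgeR adjusted p = 8.1e-09), opposite to Igfbp6.

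Of 35 growth factors and receptors 14 fell and 6 rose, where 12.8% and 8.6% of all genes tested did so, and the counts that follow are to be read against these shares. Kitl, stem cell factor, rose from 1985 and 2055 to between 9709 and 13306 normalized counts, a change of 2.56 ± 0.09 (edgeR adjusted p = 9.1e-09) that was alike in the 3 treatments. Fgf10 fell from 582 and 587 to between 21.4 and 84.2, by different amounts. Among target genes of YAP and TEAD, of which 6 of 21 rose and 2 fell, Tgfb2, Fjx1 and Crim1 rose alike by 2.34, 3.22 and 1.72. Ctgf, a member of this list and of the TGF-beta feedback and target list, fell with a mean change of -2.71. Its changes were -3.34 for carbidopa, -3.63 for LY-364947 and -1.15 for CHIR-99021, and differed in size. Tgfb2, a TGF-beta ligand, had 355 and 346 counts in MEF and 1436 to 2018 after treatment. Of 19 TGF-beta feedback and target genes 8 fell and 3 rose, and 9 of those 11 differed in size among compounds. None of the 19 chemokine and cytokine genes rose, and 9 fell. Il1rl1, the interleukin 33 receptor, fell alike from 5683 and 5738 to between 398 and 577. In the prostaglandin list, where 6 of 16 fell and 2 rose, the receptor Ptger4 fell and the synthase Ptges rose, with mean changes of -2.26 and 2.03.

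Among transcription factors of mesenchyme, 10 of 43 rose and 12 fell, against 8.6% and 12.8% of all genes tested. Gata6, a factor of mesoderm and endoderm, rose from 178 and 129 to between 675 and 858 normalized counts, a change of 2.33 ± 0.13 (edgeR adjusted p = 3.0e-07). Meis2, a cofactor of Hox proteins, rose from 1713 and 1675 to between 5434 and 5853, a change of 1.77 ± 0.08. Prrx2, a limb and craniofacial mesenchyme factor, fell from 562 and 535 to between 99.3 and 179, and its paralogue Prrx1, named after its values had been seen, fell by 0.64 ± 0.10. All 4 moved alike.

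The Hox genes, which give cells their position along the body axis, split by paralogue group. The number in a Hox gene's name runs from genes expressed up to the head end to those expressed towards the tail and, in limbs, the digits. Of 13 tested genes of groups 3 to 6, 9 rose and 1 fell in all 3 treatments, against 8.6% and 12.8% of all genes tested. None of 9 in groups 7 to 9 was called in all 3, and of 7 in groups 10 to 13 none rose and 4 fell. The medians of the mean change were 1.07, 0.01 and -1.34. This grouping was made after the values had been seen, so it is given without a test. Hoxc5 rose alike from 250 and 240 to between 434 and 537 normalized counts, a change of 1.00 ± 0.10 (edgeR adjusted p = 2.5e-05). Hoxa5 went from 69.1 and 65.8 to between 230.4 and 419.9, a change of 2.24 ± 0.20. Hoxd10 and Hoxd11, also chosen with their values known, went from 108 and 114 to between 28.5 and 55.6 and from 54.5 and 54.2 to between 8.94 and 22.0. In none of the 4 did the treated libraries overlap with MEF, which held for every common gene. Hox genes of a cluster overlap with antisense transcripts, and the strand setting of the counting is not given in the sources used here, so their counts may hold reads of a partner.

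Metabolic and stress lists moved in different directions. Of 21 antioxidant genes linked to the factor NRF2, 10 rose and 2 fell, against 8.6% and 12.8% of all genes tested, and the lists that follow are to be read against the same shares. Srxn1, sulfiredoxin, rose alike from 1145 and 1063 to between 1849 and 2119 normalized counts, a change of 0.88 ± 0.09 (edgeR adjusted p = 1.8e-05). Nqo1, a quinone reductase, rose alike by 1.18 ± 0.12 and the glutathione synthesis gene Gclc by 0.49 ± 0.08, while the cystine importer Slc7a11 fell by 1.76 ± 0.28. The last 3 were named after their values had been seen. Of 24 fatty acid oxidation genes 7 rose and 1 fell, and Hadha, of the trifunctional protein, rose alike from 678 and 773 to between 1927 and 2446. Of 24 glycolysis and hypoxia genes 7 rose and 4 fell, of 20 p53 targets 3 rose and none fell, and of 15 heat shock genes 2 rose and 1 fell. Falls were the more frequent among 25 genes of the ATF4 stress response, with 8 against 2 rises, and among 24 cholesterol genes, with 7 and none. Of the 7 cholesterol falls 6 differed in size among compounds and none moved alike. The medians of that list were -0.18 for carbidopa, -0.12 for LY-364947 and -0.85 for CHIR-99021. Of 25 immediate early genes 8 fell and 4 rose. Egr1, Nr4a1 and Nr4a2 fell alike, with mean changes of -1.69, -2.26 and -2.66, and the phosphatase Dusp1 rose by 1.09. In the lysosome list 6 of 31 fell (19.4%, against 12.8%), all alike, with the protease Ctsd at -0.51 ± 0.08, and none rose. In the mean response 11 of the 31 lysosome genes were lower and 5 higher, where 21.8% and 19.6% of all genes tested were so.

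Several core gene groups were not called. Of 86 ribosomal protein, ribosome biogenesis, proteasome and histone genes tested, 0 were higher or lower in all 3 treatments by edgeR's quasi-likelihood test. The count was also 0 at an unadjusted p under 0.05 in each treatment and 0 by DESeq2. Their median mean change was 0.13.

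The cell cycle lists differed from each other. Of 24 mitosis genes 3 fell in all 3 treatments (12.5%, against 12.8% of all genes tested) and none rose. In the mean response 19 of the 24 were lower, against 21.8% of all genes, with a median change of -0.88. By compound the median was -0.45 for carbidopa, -0.26 for LY-364947 and -1.83 for CHIR-99021. All 3 common falls differed in size among compounds, so the mean response of this list was weighted towards CHIR-99021. Of 26 replication genes 5 rose in all 3 treatments and 1 fell, against 8.6% and 12.8%. Mcm3, a subunit of the replicative helicase, rose alike by 0.76 ± 0.10.

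**Figure D5:**
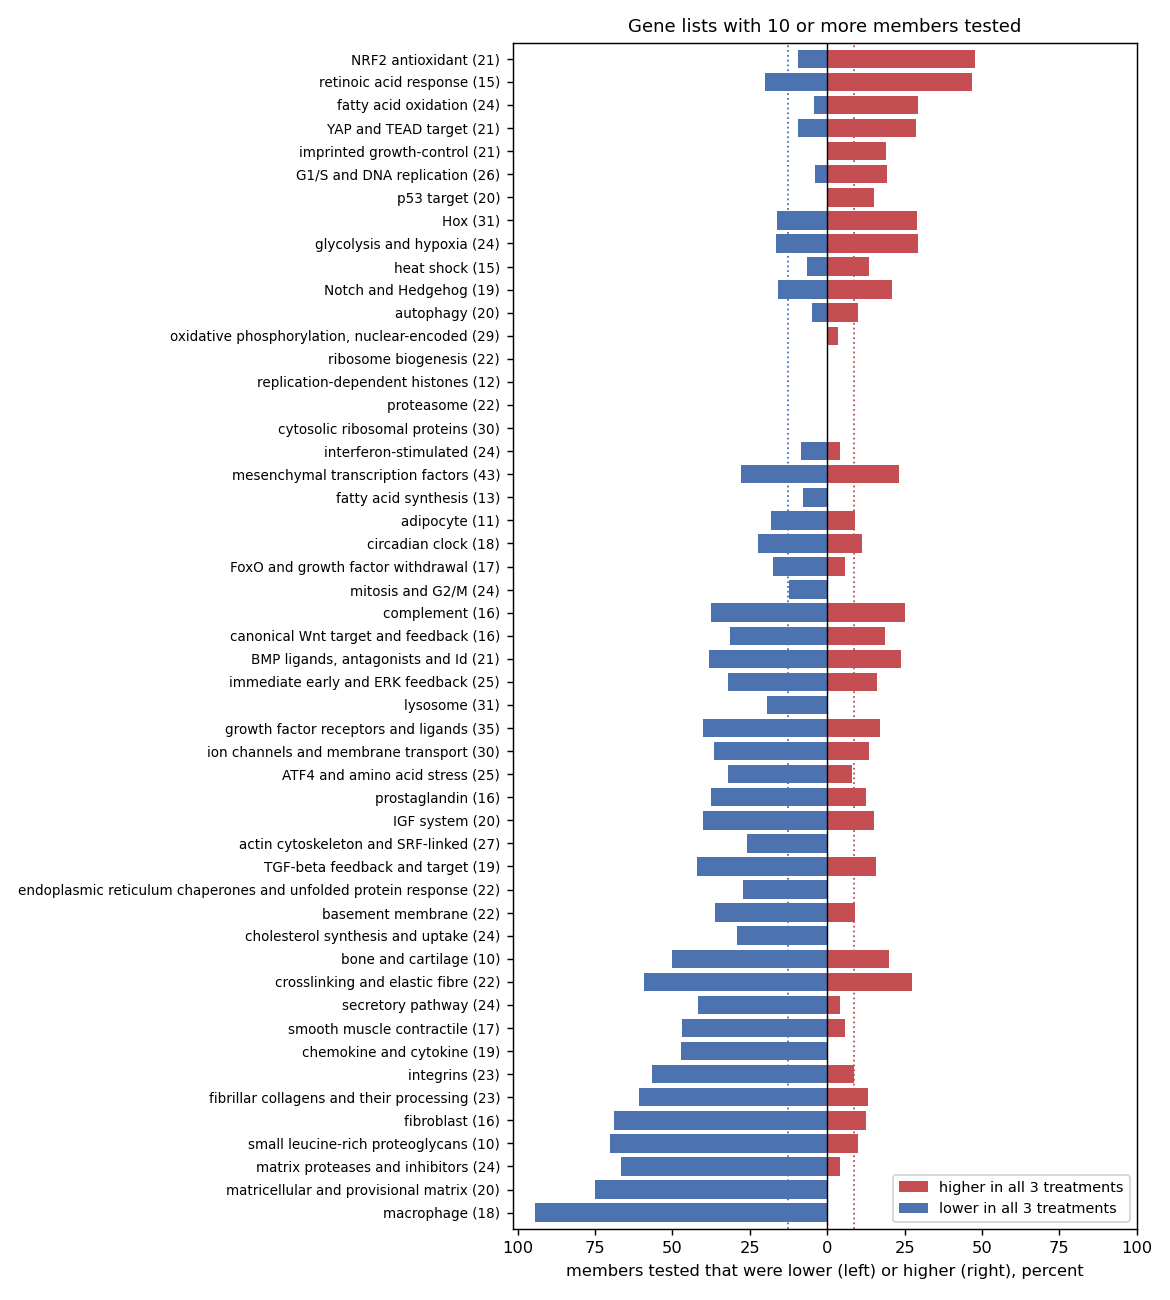
For each gene list with 10 or more members tested (number in brackets), bars give the percent of members lower (left, blue) or higher (right, red) in all 3 treatments, and dotted lines give the same percent over all genes tested, 12.8% and 8.6%. The macrophage, matricellular, proteoglycan, fibroblast and protease lists extend farthest to the left and the antioxidant and retinoic acid lists farthest to the right, and the 4 core lists have no bar.

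Signs of other cell types and of the cultures moved with the treatments, and their part in the results above was not tested. In bulk RNA, fewer cells of a type and less RNA per cell cannot be told apart. Of 18 macrophage genes tested, 17 were lower in all 3 treatments and none was higher, against 12.8% and 8.6% of all genes tested. Their summed level was 1311 and 1350 CPM in MEF and 97.82 to 416.3 CPM in the treated libraries. The defining markers Csf1r, Cd68 and Adgre1 all fell, with Adgre1 going from 619.6 and 645 to between 18.0 and 132 normalized counts, and none was at 0. In 16 of the 17 the size differed among compounds, and none moved alike. The lists that follow are to be read against the same shares. The endothelial list, with 3 of 5 tested genes lower, had a summed level of 251.8 and 273.7 CPM in MEF and 59.69 to 81.58 CPM after treatment. The other 8 members were below the filter. Flt1 alone held 3337 and 3534 reads in MEF, of 3680 to 3903 for the list. For neural and glial genes, 4 of 8 lower and another 6 below the filter, the sums were 98.53 and 101.9 CPM in MEF. They were 14.8 to 17.4 CPM in treated libraries. The skeletal muscle list, 2 of 3 lower, summed to 49.1 and 51.76 CPM and to 7.185 to 20.9 CPM. The other 13 members were below the filter. Des, also in the smooth muscle list, held 421 and 473 reads in MEF, of 696 to 761 for the list. The epithelial, adipocyte, and bone and cartilage lists had members in both directions.

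Xist, the X-inactivation RNA made only in female cells, went from 21959 and 21199 normalized counts to between 5133 and 9679, and the Y-linked genes were present in all libraries. Of these, Kdm5d had 409.5 and 417 counts in MEF and 395 to 541 after treatment and was not called, and Ddx3y fell by 0.47. Xist and Y-linked transcripts were thus both present in every library.

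The labels give the treated samples the cell type of mouse hepatic-like cells. Of 33 hepatocyte genes, 28 were below the filter. These summed to 18 and 30 reads in MEF and 41 to 60 reads in each treated library. That was at most 3 CPM, here scaled by the library total without TMM scaling. Among the 28 were the defining markers Alb, Afp, Ttr and Hnf4a. Reads of Alb were 2 and 0 in MEF and 5 to 10 in each treated library, and Hnf4a 1 and 2 reads in MEF and 6 to 10 after treatment. Afp had 1 and 2 reads in MEF and 0 to 3 after treatment, and Ttr 0 in both MEF libraries and at most 1 after treatment. Of the 5 tested, Arg1, the arginase of the urea cycle, rose from 5.32 and 5.77 to between 99.3 and 190.1 normalized counts, and Ass1, which acts upstream of it, fell alike with a mean change of -1.21 ± 0.10. The fibroblast markers Vim and Col1a1 kept at least 9874 and 11792 normalized counts in every treated library.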

How the data were processed

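RNA-seq counts were deposited by the authors as raw gene counts for 8 libraries, 2 each of MEF, carbidopa, LY-364947 and CHIR-99021, with 15039566 to 20504338 counts per library. Per the labels and methods, reads were aligned to mm10 with STAR 2.4.2a and counted per gene with featureCounts. The labels name a SMARTER kit and the methods a NEBNext Ultra kit. The annotation release and strand setting are not given in the sources used here. Of 50578 gene identifiers, 50354 (99.6%) were in GENCODE M21, which gave coordinates. Coordinates of promoters are those of RefSeq on GRCm38.p6. Levels are normalized by library depth and not per gene length, so they are compared between libraries and not between genes.

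Counts were tested in edgeR 4.0.16 (R 4.3.3) with TMM scaling, its filter on low counts by group, and one quasi-likelihood fit over all 8 libraries with group as the only term. Each compound was compared with MEF, the 3 changes were averaged (the mean change), and a difference among the 3 treatments was tested with 2 degrees of freedom. P-values are two-sided and Benjamini-Hochberg adjusted over 15154 genes. Normalized counts are counts divided by DESeq2 size factors. The scripts were tested on simulated data. The biological coefficient of variation was 11%. Alternatives were DESeq2 1.42.0, other size factors, other filters and thresholds, a replicate block, 2 pooled groups, and leaving out each library or compound.

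Named genes were, among those that moved alike, did not overlap with MEF and reached 100 normalized counts on one side, the 12 largest mean rises and 12 largest falls. From each of 57 gene lists up to 4 members called in all 3 treatments with the smallest p were eligible too, as were defining cell type markers. Others are stated to be chosen after their values were seen. Some members of the retinoic acid list are counted but not reported by name here. The members and lists were chosen with earlier results of these data known.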

Additional observations from a re-analysis of the deposited data

Results flagged for a closer look

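For Ctgf and 17 other genes named above, the change from MEF differed in size among the 3 compounds. The test was edgeR's quasi-likelihood test of that difference, which called 13.3% of all genes tested. Their changes are therefore common in direction only, or, for Rara and Crabp2, not common. In the retinoic acid list these were Cyp26b1 (adjusted p = 5.92e-05), Rara (0.000108), Crabp2 (0.000127) and Tgm2 (0.000324). CHIR-99021 gave the smallest rise of Cyp26b1 (4.39 against 5.68 and 5.65) and the largest of Tgm2 (3.02 against 2.07 and 2.22). Rara changed by 0.96 with CHIR-99021, by -0.37 with carbidopa and by -0.51 with LY-364947.

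Among matrix and contractile genes, edgeR's adjusted p of the difference among compounds was 0.000113 for Bgn, 0.00016 for Col1a1, 0.0291 for Col1a2, 0.00735 for Mmp13, 0.00146 for Actg2 and 0.00522 for Myh11. Carbidopa gave the largest fall of Col1a1 (-2.57 against -1.03 for LY-364947 and -1.54 for CHIR-99021), and CHIR-99021 gave the smallest falls of Bgn, Mmp13, Actg2 and Myh11. edgeR's adjusted p of the difference was 1.08e-05 for Ctgf, whose fall was smallest with CHIR-99021. Among secreted signals it was 0.00534 for Fgf10 and 0.0389 for Grem1, both of which fell most with CHIR-99021. The macrophage markers Cd68 (0.000179), Csf1r (0.000199) and Adgre1 (0.000998) also fell most with CHIR-99021. The value was 0.0056 for Xist, whose fall was largest with carbidopa (-1.99), and 0.0386 for Arg1, whose rise was largest with CHIR-99021 (5.06).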

How the results depend on the processing

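No common gene changed sign under the other tools, filters, block and threshold or with 1 library left out, where it was fitted. As all 6 treated libraries lay on one side of both MEF libraries for each, this sign was largely set by the selection and is no sign of stability. The number called moved. With DESeq2 86.8% of them were still called in all 3 treatments and with relative log expression size factors 97.5%. These size factors moved the median mean change of all genes from 0.0336 to 0.00469. At an adjusted p of 0.01, 759 genes were higher in all 3, 525 rose alike, 1661 were higher in the mean response and 864 differed among treatments. Without the filter on low counts, 3648 genes differed among treatments. Leaving out 1 library at a time gave 738 to 1709 genes higher in all 3 and 1261 to 2331 lower, 494 to 1081 that rose alike and 694 to 1268 that fell alike. The mean response then had 1375 to 4104 genes higher and 2184 to 4188 lower, and 528 to 6745 genes differed among treatments, the most without carbidopa 2. With 1 library left in a group its spread is taken from the other groups. The cause of these shifts was not tested. The labels' replicate numbers are shared by the groups, but the replicate differences of 2 groups correlated by only -0.183 to 0.15. Whether libraries with the same number shared a culture or batch cannot be told from these values. A fit with the replicate block called 1231 genes higher and 1862 lower in all 3, with 860 and 1074 alike. The mean change of Rara, which is not a call, changed sign under 6 alternatives, at -0.0044 with relative log expression size factors, -0.0045 with DESeq2, -0.0040 without MEF 2, -0.019 without carbidopa 1 and -0.44 over carbidopa and LY-364947 only. With 1 library left out it ran from -0.021 without CHIR-99021 1 to 0.067 without CHIR-99021 2. With 2 libraries a group, small changes could be missed.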
